A study of Homo sapiens with 9 samples.

Results

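Ribosome profiling reads out which mRNAs are being translated, and the transcripts described here are those of the splicing machinery, in Huh-7, a cell line from a human liver tumour, exposed to compounds that act inside the ribosome. The set holds the genes whose symbols begin with HNRNP, SRSF, SF3A, SF3B, SNRP, PRPF or U2AF, without HNRNPK, and the rule reads the symbols and no measured value. It has 61 members out of 9221 transcripts listed in the deposited tables, and all 61 are in the tables of both compounds. Cells were treated for 1 hr with 1.5 μM PF-06378503 (PF8503), with 1.5 μM PF-06446846 (PF846, spelled PF-067446846 in the sample titles) or with 0.5% DMSO as vehicle, with 3 biological replicates per condition and 9 libraries in all. The labels name no genetic change in these cells, and all libraries came from this single line.

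PF8503 and PF846 are related small molecules that occupy the exit tunnel of the ribosome and stall the synthesis of a narrow group of proteins, in most cases while the first residues of the chain are still in the tunnel. Splicing of pre-mRNA is carried out by the spliceosome, which is built from small nuclear ribonucleoproteins (snRNPs), each a short RNA held in a ring of Sm proteins, and from many further protein factors. SR proteins bind exons and in general promote their inclusion, whereas the heterogeneous nuclear ribonucleoproteins (hnRNPs) coat the nascent transcript and often act against it. These proteins are made on free cytosolic ribosomes and then imported into the nucleus.

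Each deposited value is the mean over the libraries of a condition of the reads in the coding sequence, divided by size factors and hereafter called normalized counts, with reads counted from 10 codons after the start codon or from behind a stall. The value of the single libraries was not analysed here, so no replicate error, no depth per library and no test is given, and every difference below is a difference between means whose spread is unknown. The effect of a compound is given as the log2 of its mean over the DMSO mean of the same table. A log2 ratio of 0.3 in either direction, an increase of 23.1% or a decrease of 18.8%, served as the limit for a count of members. The DMSO libraries are shared by both comparisons, and no sequencing lane in the library names is shared between conditions, so that a lane effect and a compound effect cannot be told apart. All 8 hepatocyte-derived markers looked up, among them ALB and AFP, were in the PF8503 table, with DMSO means from 1296 to 212970 normalized counts, while of 8 markers of other cell types PECAM1 alone was, at 170.

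The opening of the coding sequence is shown for the members with the most extreme values and for the 2 with the most reads. The study found stalls near the start of the protein, although not only there. No relation of these codons to the ratios was tested. Each line gives the first 20 codons from GENCODE version 44 on GRCh38, with the first 10 codons, which the authors left out of the count, in lower case and the first counted codons in capitals. SRSF4 (chr1:29181693-29181752, reverse strand, exon 1) and HNRNPUL2 (chr11:62727097-62727156, reverse strand, exon 1) are the members past the limit. PRPF38B (chr1:108692592-108692651, forward strand, exon 1) and PRPF18 (chr10:13587087-13587146, forward strand, exon 1) had the lowest ratios. SNRPG (chr2:70288188-70293649, reverse strand, exons 1 to 3) and SNRPB (chr20:2467702-2470690, reverse strand, exons 1 to 2) had the highest ratios below the limit with PF846 and with PF8503. HNRNPA2B1 (chr7:26197679-26200577, reverse strand, exons 1 to 2) and HNRNPU (chr1:244864248-244864307, reverse strand, exon 1) had the highest DMSO means. Where more than 1 exon is named, the coordinates span the introns between them.
SRSF4: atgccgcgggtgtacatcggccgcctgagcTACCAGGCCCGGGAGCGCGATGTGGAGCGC
HNRNPUL2: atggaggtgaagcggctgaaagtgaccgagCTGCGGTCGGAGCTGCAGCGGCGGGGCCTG
PRPF38B: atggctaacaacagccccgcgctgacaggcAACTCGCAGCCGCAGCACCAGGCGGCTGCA
PRPF18: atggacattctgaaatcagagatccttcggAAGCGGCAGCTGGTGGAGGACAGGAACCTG
SNRPG: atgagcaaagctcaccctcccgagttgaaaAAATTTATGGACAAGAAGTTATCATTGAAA
SNRPB: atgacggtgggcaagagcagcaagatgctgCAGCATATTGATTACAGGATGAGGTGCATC
HNRNPA2B1: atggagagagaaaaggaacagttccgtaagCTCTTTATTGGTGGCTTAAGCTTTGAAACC
HNRNPU: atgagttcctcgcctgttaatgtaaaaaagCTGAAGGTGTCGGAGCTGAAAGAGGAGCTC

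No member was lower by the limit with either compound, and the few that were higher by it had few reads. With PF8503, 1 member, SRSF4, was at or above a log2 ratio of 0.3 and 0 were at or below -0.3, where 2.12% and 2.98% of the 9157 transcripts of the table were. With PF846, SRSF4 and HNRNPUL2 were at or above 0.3 and 0 members at or below -0.3, where 0.882% and 1.12% of 8839 transcripts were. With shares this small, counts of 0 or 1 among 61 members are near the background. The 2 members higher with PF846 rest on few reads. The log2 ratios of the 61 members ran from -0.26 to 0.45 with PF8503 and from -0.21 to 0.39 with PF846. Their median was 0.0068 with PF8503, beside 0.013 over all transcripts, and 0.039 with PF846, beside 0.00086. Within 0.1 of 0 lay 43 members (70.5%) with PF8503 and 49 (80.3%) with PF846, beside 60.9% and 73.1% of all transcripts. At a limit of 0.2, 1 member was lower (PRPF38B) and 3 were higher (SRSF4, SNRPB and SNRPG) with PF8503, where 6.33% and 6.57% of all transcripts were, and with PF846 1 was lower (PRPF18) and 3 were higher (SRSF4, HNRNPUL2 and SNRPG), where 3.64% and 3.27% were. Neither the shares at 0.2 nor those within 0.1 of 0 were matched for reads. With 1000 to under 10000 normalized counts, SNRPB, SNRPG and HNRNPM lay above the 0.18 given for PF8503, and no member lay below -0.29. At a limit of 0.5 no member passed, while 1.08% of all transcripts were lower and 0.240% higher with PF8503, and 0.396% lower and 0.0792% higher with PF846.

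**Figure D1:**
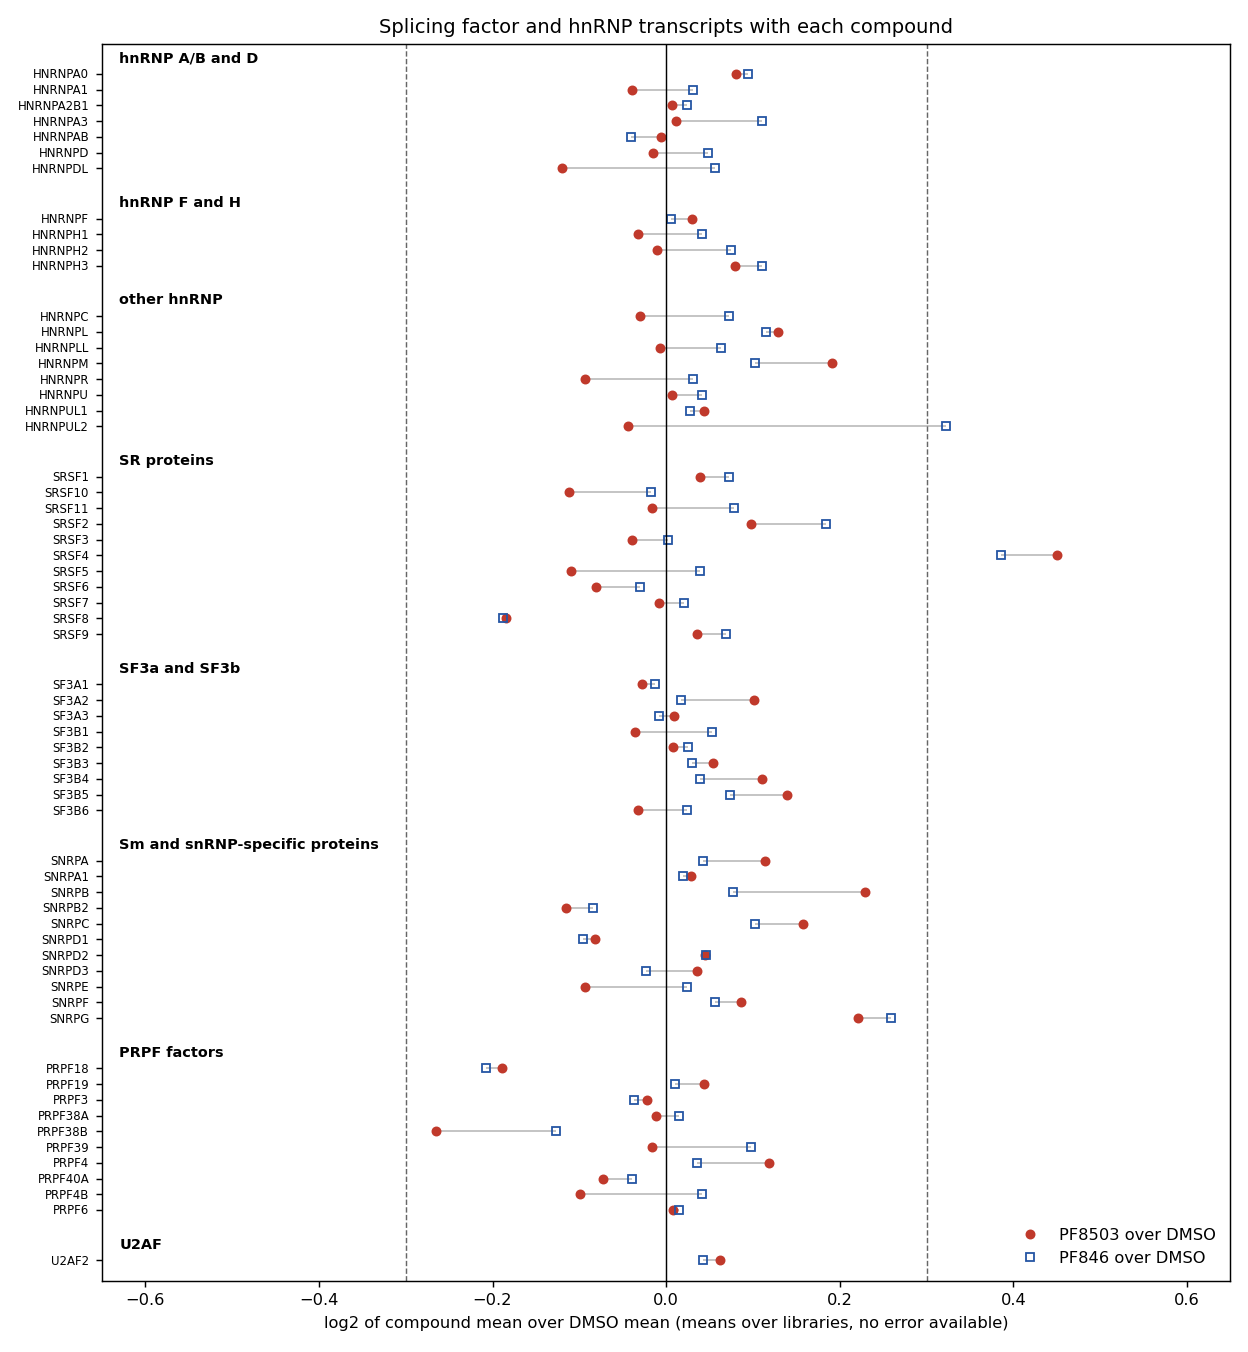
Log2 of the compound mean over the DMSO mean (x axis) for each of the 61 members, grouped by family (y axis), with PF8503 as filled circles and PF846 as open squares joined by a grey line. Dashed lines mark 0.3 in each direction, and SRSF4 with both compounds and HNRNPUL2 with PF846 lie beyond them. Points are ratios of means over libraries, without error bars.

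Members above 0 made up a larger share with PF846 than with PF8503. With PF8503, 31 members were above 0 and 30 below, or 50.8%, against 54.7% of all transcripts. With PF846, 48 were above 0 and 13 below, or 78.7%, against 50.3% of all transcripts. The upper quartile of the members was 0.073 with PF846, beside 0.057 over all transcripts, so most of the 48 were close to 0. This share was not tested, since only means per condition were analysed, and the members are not independent of one another.

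Ratios above the limit were more common among transcripts with few reads, and most members had many. Their DMSO means ran from 46.8 normalized counts for SRSF4 to 19391 for HNRNPA2B1 in the PF8503 table, with a median of 2492 against 397 over the table. Together they held 1.91% of the DMSO signal in both tables. Among transcripts with a DMSO mean under 100 in the PF8503 table, 9.44% were higher by the limit, compared with 1.49% from 100 to under 1000 and 0.245% from 1000 to under 10000. The shares lower by the limit were 5.61%, 2.72% and 2.36% in the same order, and 2.94% from 10000, so on that side they differed little above 100. Of the members, 48 had a DMSO mean of at least 1000 in that table, and none of these 48 passed the limit in either direction, where 2.60% of all transcripts from 1000 to under 10000 and 2.94% from 10000 did. In the PF846 table, where 47 members had at least 1000, the same count was 0, where 1.16% and 0.870% of all did. With shares this small, a count of 0 among so few members is near the background.

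**Figure D2:**
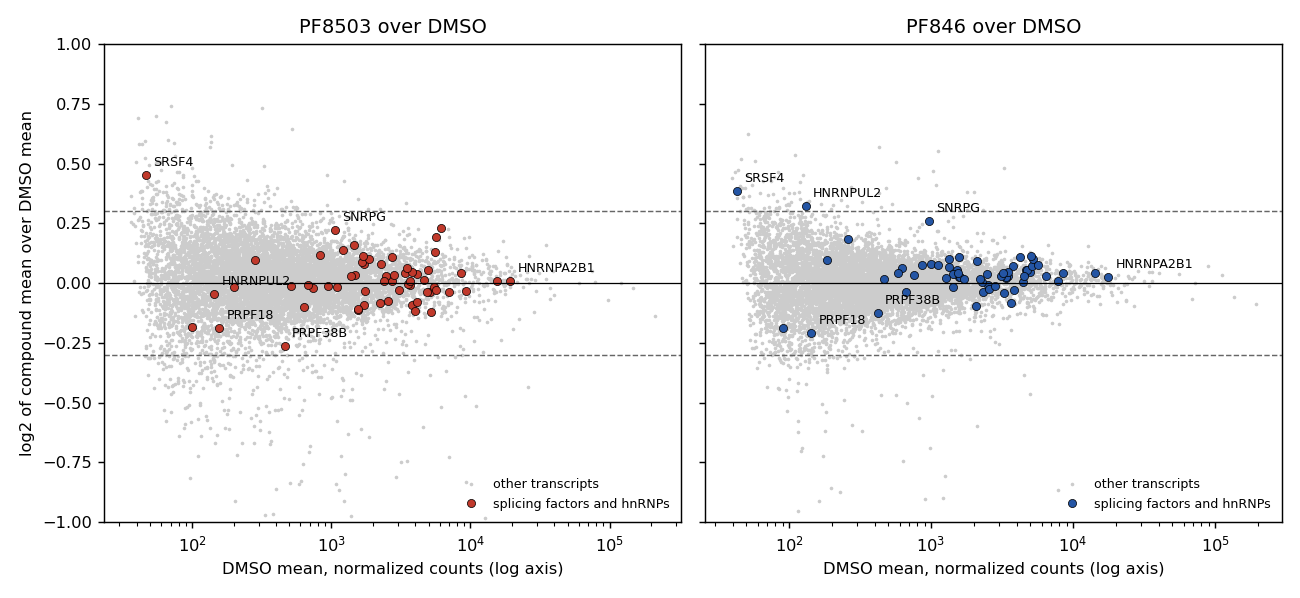
Log2 of the compound mean over the DMSO mean (y axis) against the DMSO mean in normalized counts (x axis, log scale), for PF8503 on the left and PF846 on the right. Members are large points over the other transcripts in grey, dashed lines mark 0.3 in each direction, and 24 (PF8503) and 11 (PF846) other transcripts beyond 1 in either direction are outside the plot. Members with a DMSO mean of at least 1000 stay between the dashed lines.

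The counted region was the same for every member. Since the DMSO libraries are the same, a transcript counted over the same codons in both tables has a fixed ratio of its DMSO means, and this ratio was 1.09. All 61 members kept it to within 8.8e-05 on the log2 scale, while 98.5% of the 8775 transcripts in both tables kept it to within 0.002. None of the members was therefore counted from behind a stall in 1 table only, and DMSO cancels when the compounds are set against each other.

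Among the hnRNPs of the A/B and D group, which are abundant shuttling proteins with paired RNA recognition motifs, ratios stayed close to 0. HNRNPA2B1 (ENSG00000122566) had a DMSO mean of 19391 and a PF8503 mean of 19483 normalized counts, a log2 ratio of 0.0068. With PF846 its means were 17749 and 18054, a log2 ratio of 0.025. It was the member with the most reads, and both ratios were close to 0. HNRNPDL, a close relative of HNRNPD, had the lowest PF8503 ratio of the 7 members of this group, with 5189 normalized counts in DMSO and 4774 with PF8503, a log2 ratio of -0.12. In the PF846 table the means were 4749 and 4938, a log2 ratio of 0.056. HNRNPA3 had 4640 and 4677 with PF8503 (log2 ratio 0.011) and 4247 and 4586 with PF846 (log2 ratio 0.11). HNRNPAB was the member of this group below 0 with PF846, at -0.041, while 6 of 7 were above 0, where 50.3% of all transcripts were. The group as a whole had a median of -0.0054 with PF8503 and 0.048 with PF846.

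HNRNPF, HNRNPH1, HNRNPH2 and HNRNPH3, which bind runs of G in RNA, had log2 ratios from -0.033 to 0.080 with PF8503. With PF846 they ran from 0.0052 to 0.11, and all 4 were above 0, where 50.3% of all transcripts were. HNRNPH1 had 9266 normalized counts in DMSO and 9058 with PF8503, and its paralog HNRNPH2 had 951 and 944. The log2 ratios were -0.033 and -0.011, both close to 0 although the reads of the paralogs differed widely.

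The remaining hnRNPs held the largest gap between the tables. HNRNPUL2 (ENSG00000214753, chromosome 11), a relative of the scaffold attachment protein HNRNPU, had 132 normalized counts in DMSO and 165 with PF846, a log2 ratio of 0.32. With PF8503 it had 144 in DMSO and 140 with the compound, a log2 ratio of -0.044. Between 100 and 1000 normalized counts, 0.440% of the transcripts of the PF846 table were higher by the limit. HNRNPUL2 lay near the lower edge of this class, and under 100 the share was 4.81%. HNRNPM, a splicing regulator that binds GU-rich RNA, had 5674 in DMSO and 6478 with PF8503, a log2 ratio of 0.19, and 5194 and 5574 with PF846, a log2 ratio of 0.10. HNRNPL, which binds CA repeats, had log2 ratios of 0.13 and 0.11 from DMSO means of 5547 and 5077. HNRNPU itself, with 15512 in DMSO and 15588 with PF8503, had a log2 ratio of 0.0070, and 0.042 with PF846. All 8 members of this group were above 0 with PF846 and 4 of 8 with PF8503, where 50.3% and 54.7% of all transcripts were.

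Of the 11 SR proteins, 4 were above 0 with PF8503 and 8 with PF846, where 54.7% and 50.3% of all transcripts were. SRSF4 (ENSG00000116350, chromosome 1, reverse strand) was the member with the fewest reads, with 46.8 normalized counts in DMSO and 63.9 with PF8503, a log2 ratio of 0.45, and with 42.8 and 55.9 in the PF846 table, a log2 ratio of 0.39. Both comparisons use the same DMSO libraries, so these values are not independent of each other. Of the 1070 transcripts under 100 normalized counts in the PF8503 table, 9.44% were higher by 0.3 or more, and 4.81% of 915 were with PF846. SRSF8, the other SR protein under 100, was lower instead, with 99.8 in DMSO and 87.8 with PF8503, a log2 ratio of -0.18, and -0.19 with PF846. SRSF2, which also recognizes exonic enhancers, had 284 and 304 with PF8503 (0.098) and 260 and 295 with PF846 (0.18). Ratios were small among SR proteins with many reads, on either side of 0. SRSF1, the founding member of the family, had log2 ratios of 0.039 and 0.072 from a DMSO mean of 4134, and SRSF3, the smallest of them, had -0.039 and 0.0025 from 4872. SRSF5 and SRSF10 were at -0.11 with PF8503, from DMSO means of 1565 and 1550, and at 0.039 and -0.017 with PF846.

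The SF3a and SF3b proteins, which belong to the U2 snRNP and hold the branch site of the intron, lay close to 0. Their 9 log2 ratios ran from -0.036 for SF3B1 to 0.14 for SF3B5 with PF8503, and from -0.013 for SF3A1 to 0.074 for SF3B5 with PF846. SF3B1, the largest subunit, had 5122 normalized counts in DMSO and 4995 with PF8503, and 4689 and 4866 with PF846. SF3B5 had 1218 and 1342 with PF8503 and 1115 and 1173 with PF846. U2AF2, which binds the polypyrimidine tract ahead of the 3' splice site, was at 0.062 and 0.042, with 3508 and 3663 normalized counts in the PF8503 table.

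The Sm proteins and those bound to single snRNPs had a PF8503 median of 0.044, the highest of the families with more than 1 member. Of the 11 members of this family, 8 were above 0 with PF8503, where 54.7% of all transcripts were. SNRPB, which encodes the Sm proteins B and B', had 6146 normalized counts in DMSO and 7203 with PF8503, a log2 ratio of 0.23, and 5625 and 5935 with PF846, a log2 ratio of 0.077. SNRPG, another ring protein, had 1063 and 1239 with PF8503 (0.22) and 973 and 1165 with PF846 (0.26). SNRPC, a U1 snRNP protein, had 1459 and 1628 with PF8503, a log2 ratio of 0.16, and 0.10 with PF846. The other members of the family were closer to 0 or lower. SNRPB2, which binds U2 RNA, was at -0.12 with PF8503 and -0.084 with PF846, from DMSO means of 4011 and 3671. SNRPD1 was at -0.082 and -0.096, from 2247 and 2057. Proteins of the same Sm ring thus lay on both sides of 0 with each compound, from -0.094 for SNRPE to 0.23 for SNRPB with PF8503 and from -0.096 for SNRPD1 to 0.26 for SNRPG with PF846.

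The PRPF factors act in the tri-snRNP and in the activation of the spliceosome. With PF8503, 7 of 10 were below 0, where 4147 of all 9157 transcripts were. PRPF38B (chromosome 1, forward strand) had the lowest PF8503 ratio of all members, with 461 normalized counts in DMSO and 384 with the compound, a log2 ratio of -0.26, and 422 and 387 with PF846, a log2 ratio of -0.13. PRPF18, which acts in the second step of splicing, had 157 and 138 with PF8503 (-0.19) and 144 and 125 with PF846 (-0.21), the lowest PF846 ratio of all members. PRPF19, a ubiquitin ligase of the activated spliceosome and the PRPF factor with the most reads, had 8538 and 8802 with PF8503 (0.044) and 7815 and 7869 with PF846. PRPF4 was the highest of them with PF8503 at 0.12, from 830 to 900 normalized counts, and the kinase PRPF4B was at -0.099, from 636 to 594.

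PF8503 and PF846 were given at the same dose for the same time, so their ratios to DMSO can be set against each other in the members. The difference of the log2 ratios, PF8503 minus PF846, had a median of -0.027 over the 61 members and 0.013 over the 8641 transcripts with the same counted region. The members ran from -0.37 to 0.15, and 24 were above 0, or 39.3%, where 54.3% of all such transcripts were. HNRNPUL2 was the member lower with PF8503 than with PF846 by 0.3 or more, at -0.37, where 1.64% of all such transcripts were, and 0 members were higher by that limit, where 1.44% of all were. Counts of 1 and 0 among 61 members are near these shares. At a limit of 0.2 the counts were again 1 and 0, where 4.46% and 5.87% of all were, and at 0.5 they were 0 and 0, where 0.324% and 0.0926% were. Within 0.1 of 0 lay 51 members (83.6%), beside 63.6% of all, and this share was not matched for reads either. After HNRNPUL2 the largest negative differences were in HNRNPDL (-0.18), SRSF5 (-0.15), PRPF4B (-0.14) and PRPF38B (-0.14). On the other side stood SNRPB (0.15), HNRNPM (0.089), SF3A2 (0.084), PRPF4 (0.083) and SNRPA (0.071). By family, the count of members lower with PF8503 than with PF846 was 6 of 7 for the hnRNPs A/B and D, 3 of 4 for F and H, 5 of 8 for the other hnRNPs, 9 of 11 for the SR proteins and 6 of 10 for the PRPF factors, but 4 of 9 for SF3a and SF3b and 4 of 11 for the Sm and snRNP proteins. These counts were not matched for GC content, with which the differences went along over all transcripts. The share of 39.3% is split by GC content below, beside all transcripts. Without single libraries no interval of these differences can be given, so they do not show that the compounds act alike on any member.

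**Figure D3:**
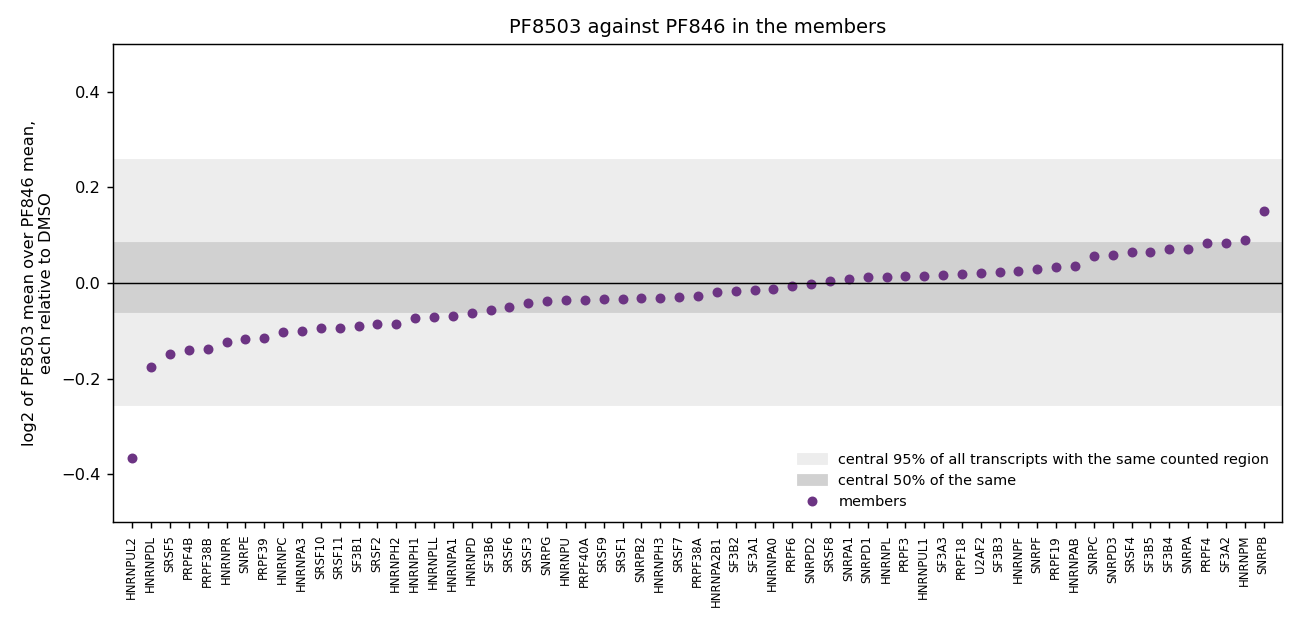
Difference of log2 ratios, PF8503 minus PF846 (y axis), for the 61 members in rising order (x axis). Bands give the central 95% and the central 50% of all 8641 transcripts with the same counted region, and HNRNPUL2 at -0.37 is the member outside the wider band.

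Base composition went along with the PF8503 ratios, in the members as in the whole table, a relation looked at after the values were seen. The GC content of the coding sequence ran from 37.4% to 67.6% over the members. Of the 21 members with the lowest GC content, up to 47.0%, 6 were above 0 with PF8503, a share of 28.6%, and their median log2 ratio was -0.036. Of the 20 with the highest, from 54.9%, 16 were above 0, a share of 80.0%, and the median was 0.053. Over all transcripts at the same limits of GC content, 30.6% of 2956 and 76.4% of 3065 were above 0, with medians of -0.047 and 0.069. With PF846 the shares above 0 were 66.7% and 85.0% of the members and 45.4% and 54.9% of all transcripts. For PF8503 minus PF846 they were 19.0% and 60% of the members, and 35.0% and 72.3% of all transcripts with the same counted region. Between these limits of GC content, the shares for this difference were 40% of 20 members and 54.8% of all such transcripts. SNRPG, with 39.4% GC, and SRSF8, with 65.5% GC, were at 0.22 and -0.18 with PF8503 and are among the members on the other side of 0 from most of their class. The part of base composition in the ratios of single members, or in the counts by family, was not tested.

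**Figure D4:**
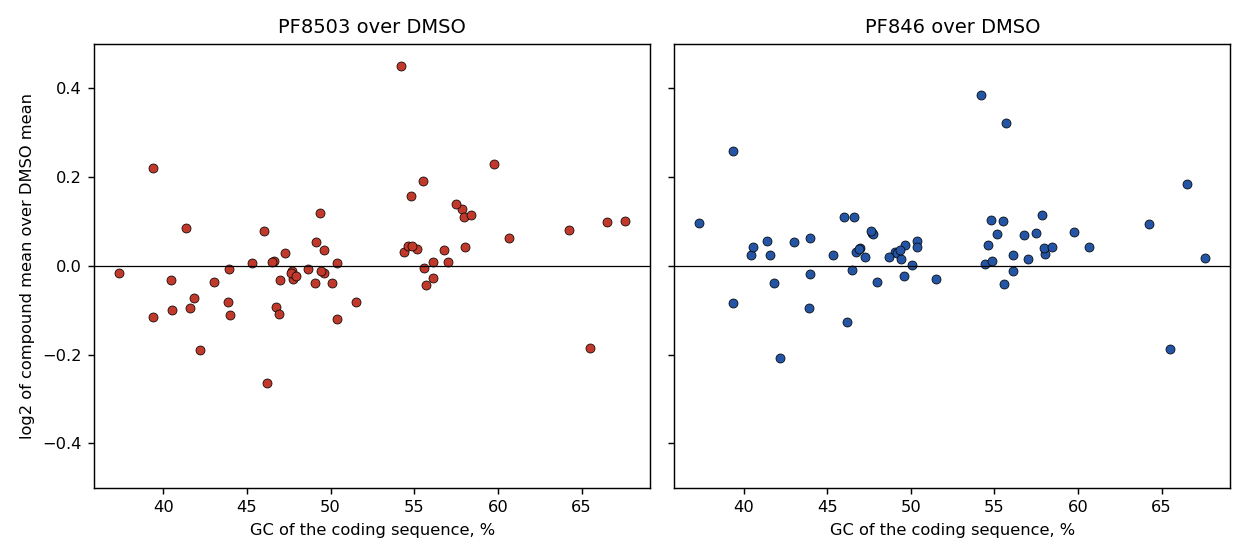
Log2 of the compound mean over the DMSO mean (y axis) against the GC content of the coding sequence (x axis) for the 61 members, with PF8503 on the left and PF846 on the right. With PF8503, 6 of the 21 members of lowest GC content and 16 of the 20 of highest lie above 0.

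Signal in the vehicle was compared between genes per length, as DMSO mean of the PF8503 table per 100 counted codons, from the canonical coding sequence of GENCODE version 44 less 20 codons, which takes counting to have begun 10 codons after the start in every member. The members ran from 9.87 for SRSF4 to 6041 for HNRNPA2B1, a 612-fold range, with a median of 671. The order of neighbours carries no error, and this level holds the amount of mRNA as well as its translation. The hnRNPs A/B and D ran from 802 for HNRNPA0 upward, and their DMSO means, not divided by length, made up 23.7% of the sum over all members. SR proteins had the widest range, 343-fold, up to 3383 for SRSF3. PRPF factors had the lowest family median, 138, with PRPF39 at 30.9 and PRPF19, at 1764, far above the rest. U2AF2 was at 771.

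Levels were also compared among the subunits of complexes with a fixed make-up. The 7 proteins of the Sm ring, which assemble in equal number, ran from 1899 for SNRPG to 3882 for SNRPD2, a 2.04-fold range, with SNRPD1 at 2270, SNRPE at 2392, SNRPF at 2510, SNRPD3 at 2650 and SNRPB at 2913. With the longest annotated coding sequence in place of the canonical one, SNRPF was at 1548 and SNRPG at 1399, which widens this range. The 3 large SF3b subunits SF3B1, SF3B3 and SF3B2 were at 399, 414 and 423, SF3B4 was at 671, and the SF3a subunits SF3A1, SF3A2 and SF3A3 at 397, 419 and 569. The small SF3b subunits SF3B5 and SF3B6, counted over 66 and 105 codons, were higher, at 1845 and 1665. SNRPA1 and SNRPB2, partners on the U2 RNA, were at 591 and 1956, which is 3.31-fold apart. The short coding sequences are those on which the codons left out at both ends weigh most.

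**Figure D5:**
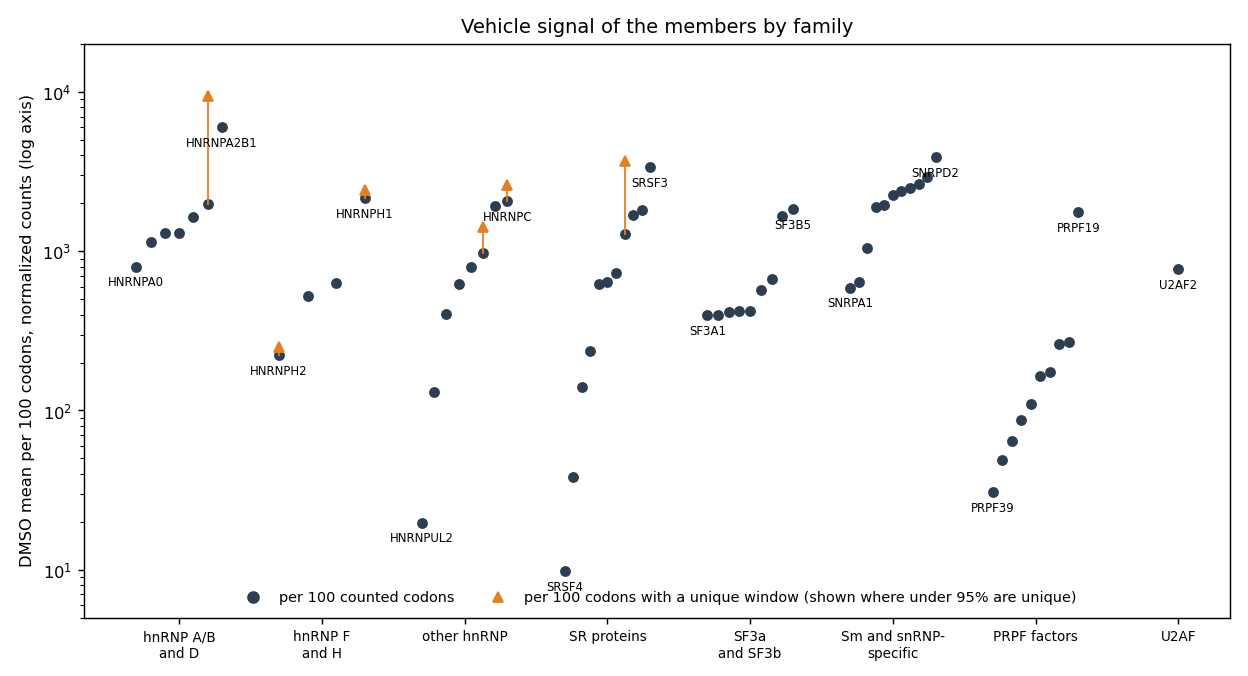
DMSO mean of the PF8503 table per 100 counted codons (y axis, log scale) for each member, in rising order within its family (x axis), with the lowest and the highest member of each family named. Triangles give the level per 100 codons with a unique 28-base window for the 6 members with under 95% of such windows, and among them HNRNPA1 goes from 1986 to 9445.

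The level of a member also depends on how much of its sequence can be told from other genes, because the authors kept only reads with a single position in the transcriptome. In 46 members every 28-base window of the counted region occurred once among 19701 canonical coding transcripts, and in 6 under 95% did. HNRNPA1 had 21.0% unique windows, since it shares windows with HNRNPA1L2 and HNRNPA1L3. Per codon with a unique window its level was 9445, against 1986 per counted codon, and it then stood above HNRNPA2B1. SRSF6 had 34.9% unique windows, since it shares 65.1% with ENSG00000288000, and levels of 3679 and 1285. HNRNPL, which shares 31.7% with ENSG00000268083, had 68.3%, HNRNPC 79.7%, HNRNPH2 88.0% and HNRNPH1 89.5%. SRSF4 and HNRNPUL2, the members past the limit, had 100% and 99.8%. The authors used an older annotation, and their transcripts may differ from these. Whether it held ENSG00000288000 and ENSG00000268083 was not checked, so the higher level of SRSF6 may not apply to their reads.

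HNRNPH1 and HNRNPH2 show how such sharing looks. Their longest shared run among the counted codons, 50 bases long, is in capitals below, with the flanks in lower case. The HNRNPH1 stretch lies in exons 7 to 8 (chr5:179617869-179618034, reverse strand), and that of HNRNPH2 in exon 2, its single coding exon (chrX:101412730-101412839, forward strand). A 28-base read that lies wholly within the capitals matches both genes.
HNRNPH1: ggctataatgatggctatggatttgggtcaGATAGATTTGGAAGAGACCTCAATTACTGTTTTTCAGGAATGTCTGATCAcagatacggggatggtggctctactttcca
HNRNPH2: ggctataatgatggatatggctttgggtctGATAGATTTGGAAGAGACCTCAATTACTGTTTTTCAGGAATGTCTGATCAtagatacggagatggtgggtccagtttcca
HNRNPH1 shares 3.72% of its windows with HNRNPH2, and 4.91% occur more than once within HNRNPH1 itself, while HNRNPH2 shares 9.50% with the readthrough transcript RPL36A-HNRNPH2. The HNRNPH1 level was 2160 per 100 counted codons against 222 for HNRNPH2. Per codon with a unique window the levels were 2414 and 252.

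Further splicing genes outside the set, of which 57 of 62 listed were in both tables, were read in the same way. With PF8503, 1 of the 57 was lower by the limit and 1 higher, where 2.98% and 2.12% of all transcripts were, and with PF846 0 were lower and 1 higher, where 1.12% and 0.882% were. These counts are near the background. Their median log2 ratio was -0.016 with PF8503 and 0.0041 with PF846. CDC40, a factor of the second step of splicing, had 426 normalized counts in DMSO and 313 with PF8503, a log2 ratio of -0.44, but 390 and 416 with PF846, a log2 ratio of 0.096. CLK1, a kinase that phosphorylates SR proteins, had 101 and 129 with PF8503 and 92.3 and 118 with PF846, log2 ratios of 0.36 and 0.36. The 17 other proteins of the snRNPs ran from -0.28 to 0.10 with PF8503, and 19 further splicing regulators from -0.17 to 0.098.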

How the data were processed

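Ribosome-protected fragments of 3 DMSO, 3 PF8503 and 3 PF846 libraries of Huh-7 cells were sequenced, and libraries were grouped by their titles. By the study's methods, adapters were trimmed (FASTX), reads from ribosomal RNA were discarded, and the rest were aligned with Bowtie against a UCSC set of canonical coding sequences built on GENCODE version 24 and GRCh38. Only reads with 1 position were kept. The last 10 codons were omitted, and counting began 10 codons past the start or, if a stall had a Z score of 2 or more, behind DMax, the codon where the cumulative read curves of compound and vehicle lie farthest apart. Transcripts needed over 30 counts. The deposited signal values are means of normalized counts per condition, made with DESeq by the authors. Versions of Bowtie and DESeq are not given in the sources used here. Replicate numbers in the authors' scripts and in the labels differ, which leaves it uncertain from which libraries the means were made. Further columns hold the authors' fold changes and p-values and were not used.

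Log2 ratios of the means, medians and counts past 0.3 were computed with Python 3.11.15, numpy 2.4.6 and pandas 2.3.3, and the steps were tested on simulated data. A departure of the DMSO ratio between tables over 0.002 (log2) was read as another counted region. Members and lists were chosen with earlier results of these data known. Named were the 6 lowest and 6 highest members per compound, those past the limit, the 5 widest differences between compounds per direction and the level extremes of each family, and the pathway genes past the limit; the other members named (HNRNPU, HNRNPF, HNRNPH3, HNRNPD, SRSF1, SRSF6, HNRNPA1 and the subunits of complexes) were chosen after their values were seen. Coding lengths, GC content and 28-base windows come from GENCODE version 44 on the same build. All 61 members were matched, and 94.8% of the 8775 transcripts in both tables had a GC value. Alternatives tried were centring on the table median, scaling to the sum of the means, a DMSO mean of at least 100 or 1000, a pseudocount of 10, limits of 0.2 and 0.5, a tolerance of 0.01 and other lengths.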

Additional observations from a re-analysis of the deposited data

How the results depend on the processing

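The medians of the members moved by at most 0.02 (log2) under centring, scaling to sums, a pseudocount, a filter on signal or a restriction to the same counted region, but centring turned the PF8503 median to -0.0059, so it has no direction. The counts past the limit rest on transcripts with few reads. With a DMSO mean of at least 100, 0 members were higher by the limit with PF8503 and 1 with PF846. With at least 1000, 0 were higher with PF8503, 0 with PF846, and 0 were lower with PF8503 than with PF846. At a limit of 0.2, 1 member was lower and 3 were higher with PF8503, and 1 was lower with PF846. At a limit of 0.5, 0 were higher with PF8503, 0 with PF846, and 0 were lower with PF8503 than with PF846. A pseudocount of 10 brought SRSF4 to 0.38 and 0.32 and HNRNPUL2 to 0.30 with PF846 and to -0.34 for PF8503 minus PF846. Of 315 recomputed values of named members 311 moved by at most 0.02. Per codon with a unique window 2 members, HNRNPA1 and SRSF6, moved by over 1.5 times, and with the longest annotated coding sequence, an alternative chosen after seeing the data, SNRPF did, to 1548. No paired analysis was possible because the deposited columns hold 1 mean per condition and carry no replicate number, and leaving out replicates was not run for the same reason. The depth per library is unknown, which limits every statement on members with few reads.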
